A study of Mus musculus with 12 samples.

Results

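The comparison described here set the back skin of mice treated for 2 weeks (2W) with minoxidil (MXD) against that of mice given vehicle (VC) for the same time. Its members were chosen by their titles as the 2 arrays that hybridized the 2W VC pool with the 2W MXD pool, out of 12 arrays in the series. The mice were C57BL/6J males bought at 8 weeks of age. Their backs were shaved, and from the next day 200 µL of the sample was applied once a day. MXD was applied at 3%, and VC was propylene glycol, ethanol and water in parts of 5, 3 and 2, which the groups shared. The groups carried no transgene or deletion. Total RNA of whole back skin from 6 mice was pooled per group, so that MXD and VC were each 1 pool and the comparison had no biological replicate and no test. The same pools were labelled with Cy3 and Cy5 on one array and with the dyes exchanged on the other, and both arrays lay on the slide that also carried the arrays of N-CE, a plant extract given at 10%, against the same VC pool. The question of this comparison was which genes differed between skin given a known hair growth stimulant and skin given the vehicle alone.

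Hair follicles cycle through growth (anagen), regression (catagen) and rest (telogen). In anagen, matrix cells at the base of the follicle divide and differentiate into the hair shaft, which is filled with hair keratins and keratin-associated proteins, and into the inner root sheath that moulds it. Follicular melanocytes make pigment only in anagen. Minoxidil is a prodrug that a sulfotransferase activates, and its sulfate opens ATP-sensitive potassium channels. Whole back skin of the mouse also holds epidermis, dermis, fat, vessels, immune cells and the panniculus carnosus, a thin sheet of skeletal muscle beneath the fat. In such bulk RNA, fewer cells of a type and less RNA per cell cannot be told apart.

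Values are log2 of the MXD signal over the VC signal, with the array that carried MXD in Cy5 given first and the array that carried MXD in Cy3 second. The mean is followed by the SD over these 2 arrays, which measures the labelling and the hybridization and not the mice. Where 1 value stands for a gene, it is this mean. A gene was called, and is written as having risen or fallen, when both arrays lay past 1.5-fold in the same direction. Of 14637 genes that entered, 959 rose (6.55%) and 1799 fell (12.3%), 18.8% in all. The counts of each list below stand beside these shares of all genes. The median over all genes was 0.003 and the median SD was 0.21. The SD was larger for dim genes, at 0.29 for 2511 genes with a mean signal below 200 against 0.19 for 6293 genes at 2000 or more. Only 28 genes passed the fold in opposite directions on the 2 arrays. Across genes the arrays correlated with r = 0.73, where genes are not independent replicates. The weaker array of the called gene nearest to the threshold stood at 0.5852, and that of the nearest gene not called at 0.5846. The plot of both arrays shows the spread. The VC pool itself was measured on the MXD arrays and on the N-CE arrays of the slide, a technical reference for differences between arrays. Of the 14637 genes, 17 were past the fold higher on the MXD arrays and 196 lower. These 2 counts are on signals after another background, dye and between-array correction (normexp, loess and Aquantile), unlike the calls. With normexp and loess, 547 genes rose and 1204 fell in MXD against VC.

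**Figure D1:**
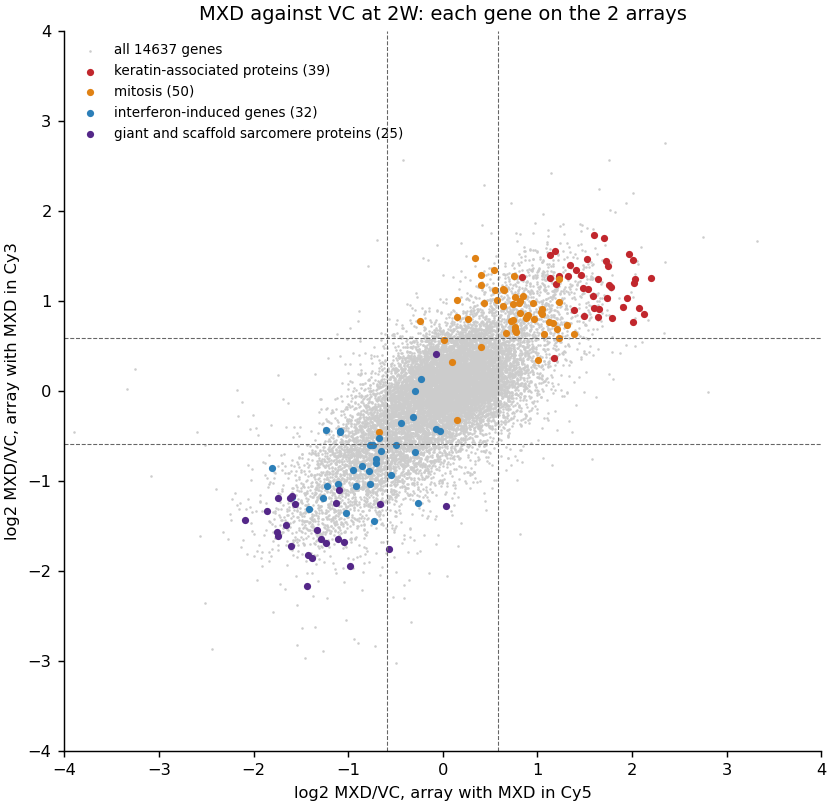
Log2 MXD over VC of every gene at 2W on the array with MXD in Cy5 (x axis) and on the array with MXD in Cy3 (y axis), with 4 gene lists coloured and the 1.5-fold limits dashed. The 39 keratin-associated proteins lie at the upper right, with 38 past both limits, and 22 of the 25 giant and scaffold sarcomere proteins lie past both limits at the lower left.

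The 4 marker genes moved as follows. Lef1 and Dsg4 were already among the top genes reported from these arrays, so they are no independent check of the sample. Lef1, the transcription factor of Wnt signalling in the hair matrix, stood at 1.53 and 1.41 on the 2 arrays, a 2.77-fold rise (1.47 ± 0.08). Its probe lies on mm9 at chr3:130927036-130927095. Dsg4, the desmoglein of the hair shaft, stood at 1.82 and 1.99, a 3.75-fold rise. Top2a, the topoisomerase of dividing cells (chromosome 11), stood at 1.23 and 1.24, a 2.36-fold rise. Ttn, the giant spring protein of striated muscle (mm9 chr2:76542548-76542607), stood at -1.44 and -2.17 and was 3.49-fold lower in MXD. Its other 8 probes also fell, with means between -1.47 and -1.12, so that the brightest probe gave the lowest value. Both follicle markers and the division marker were thus higher in the MXD pool on each array, and the muscle marker was lower on each. In MXD at 1W the same 4 genes stood at 0.47, 0.69, 0.45 and -0.55, and at 3W at 0.40, 0.15, 0.56 and -0.80.

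The promoters of a few genes are shown because genes of the same role moved together in this comparison. They are RefSeq sequences of GRCm38.p6, read 5′ to 3′ on the strand of the gene, from 250 bases before to 50 bases after the start. Krt33b and Krt31, hair shaft keratins that lie near each other on chromosome 11 (chr11:100029819-100030118 and chr11:100050502-100050801, both on the minus strand), both rose, and capitals mark CTTTGA, a core of the LEF1/TCF motif, and TATAAA.
Krt33b: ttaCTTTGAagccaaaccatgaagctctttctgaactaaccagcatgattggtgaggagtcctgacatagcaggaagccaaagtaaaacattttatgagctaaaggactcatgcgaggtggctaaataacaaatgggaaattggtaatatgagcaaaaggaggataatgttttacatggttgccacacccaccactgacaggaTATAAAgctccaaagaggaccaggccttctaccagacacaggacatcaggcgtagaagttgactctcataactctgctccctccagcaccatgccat
Krt31: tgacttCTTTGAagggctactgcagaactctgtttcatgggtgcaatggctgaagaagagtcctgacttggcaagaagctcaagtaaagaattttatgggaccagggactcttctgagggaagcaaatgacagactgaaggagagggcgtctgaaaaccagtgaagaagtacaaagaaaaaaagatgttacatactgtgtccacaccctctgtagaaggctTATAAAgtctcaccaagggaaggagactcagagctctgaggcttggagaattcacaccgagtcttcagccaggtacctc
Myh4, the fast myosin heavy chain IIb (chr11:67237562-67237861, plus strand), fell, and capitals mark a motif of MEF2, a transcription factor of muscle, and TATAAA.
Myh4: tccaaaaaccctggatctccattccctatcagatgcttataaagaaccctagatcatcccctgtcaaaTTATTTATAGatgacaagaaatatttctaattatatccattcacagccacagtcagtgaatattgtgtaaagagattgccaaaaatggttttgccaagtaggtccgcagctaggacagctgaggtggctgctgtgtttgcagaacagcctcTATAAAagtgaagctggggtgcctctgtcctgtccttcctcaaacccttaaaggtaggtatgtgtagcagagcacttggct
Top2a (chr11:99024140-99024439, minus strand) rose, and capitals mark CCAAT on either strand, the box bound by NF-Y.
Top2a: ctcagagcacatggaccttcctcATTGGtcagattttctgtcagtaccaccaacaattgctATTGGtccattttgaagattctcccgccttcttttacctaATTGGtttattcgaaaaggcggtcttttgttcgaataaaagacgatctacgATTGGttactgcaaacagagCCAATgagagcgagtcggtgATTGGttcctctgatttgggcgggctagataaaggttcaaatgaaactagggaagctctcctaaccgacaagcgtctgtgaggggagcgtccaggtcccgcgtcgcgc
CTTTGA began at -244 in Krt31 and at -247 in Krt33b, on the strand of the gene, and TATAAA at -29 and at -47. The Top2a window held CCAAT 6 times, 1 of them on the strand of the gene.

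These motifs were counted in all 32851 windows, with TATAAA sought on the strand of the gene within 60 bases before the start and the others on both strands. A motif of MEF2 can share letters with TATAAA. The latter was in 24 of 36 windows of the keratin-associated proteins (66.7%) and in 4 of 7 of the hair shaft keratins, against 2.87% of all windows. It was in 0 of 44 windows of the mitosis genes. CTTTGA was in 4 of 7 windows of the hair shaft keratins and in 11 of 36 of the keratin-associated proteins, against 16% of all. CCAAT, which was added after these promoters had been looked at, was in 33 of 44 windows of the mitosis genes (75%), against 37.4% of all. A MEF2 motif was in 3 of 10 windows of the fast sarcomere genes, against 1.86% of all, and an E-box CANNTG in 8 of 10, against 72.3% of all. Over all genes that rose, 9.66% of 911 windows held TATAAA, and over all that fell, 4.16% of 1754. For CTTTGA these shares were 13.4% and 17%, so that it was no more frequent over the genes that rose than over all windows. It was in 3 of 18 windows of the hair matrix transcription factors. For CCAAT the shares were 40.1% and 35.2%, and for the MEF2 motif 1.32% and 4.28%. A match describes the letters of the window and is no evidence of binding, and no match says only that these letters are not in it.

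The genes of the hair itself rose nearly throughout. All 11 hair shaft keratins that entered, of 16 listed, rose, and their median was 1.35 (1.55 on the array with MXD in Cy5 and 1.07 on the other). They lay close together, between 1.17 for Krt32 and 1.48 for Krt82. Krt33b stood at 1.55 and 1.38, and Krt35, an early cortex keratin, at 1.14 and 1.25. The signals of the 11 probes summed to 859100 in MXD and 304200 in VC on the array with MXD in Cy5, and to 724200 and 321700 on the other, so the MXD sums were 2.82 and 2.25 times those of VC. Neither pool lacked these RNAs: all 11 were well above background in VC as well. Krt39, Krt40, Krt81, Krt83 and Krt85 did not enter.

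Of the inner root sheath and companion layer list, 11 of 12 that entered rose, with a median of 1.24. The inner root sheath keratins Krt25 (1.57 and 1.27), Krt28 (1.07 and 1.23), Krt27 and Krt71 rose, as did Krt75 of the companion layer. So did the hardening machinery of this sheath: Tchh, the trichohyalin scaffold (1.20 ± 0.14), the deiminases Padi1 (1.36 ± 0.22) and Padi3 (1.31 ± 0.20) that citrullinate it, and the transglutaminase Tgm3 (1.78 and 0.60). S100a3, a calcium-binding protein of the hair cuticle, stood at 2.01 and 1.04. Gata3, the transcription factor of the lineage, was not called at 0.52 and 0.29.

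The keratin-associated proteins, which cross-link the keratin filaments of the shaft, formed the largest such group. Of 39 that entered, out of 56 listed, 38 rose, with a median of 1.38. The exception was Krtap31-2, at 1.17 and 0.36. The Krtap19 subfamily, small glycine- and tyrosine-rich proteins encoded on chromosome 16, had the highest median of the subfamilies with more than 1 member, 1.71, and its 6 members lay between 1.59 and 1.74. Krtap19-2 agreed closely between dyes, at 1.70 and 1.71, whereas Krtap19-5 stood at 2.20 and 1.25. The Krtap4 subfamily on chromosome 11 lay between 1.06 and 1.49 (5 members), Krtap5 on chromosome 7 between 1.16 and 1.61 (4 members), and Krtap3 on chromosome 11 between 1.20 and 1.57 (3 members). Members of a subfamily have similar sequences, so that a probe may also bind RNA of a neighbour. On chromosome 16, 62 of 497 genes rose, and 19 of these were Krtap genes. Of the other 478 genes of that chromosome 43 rose (9.0%), beside 6.55% of all genes.

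Transcription factors of the hair matrix were also higher in MXD. Of 20, 13 rose and 0 fell, with a median of 1.09. After Lef1 came Dlx3 (1.68 and 1.04) and Foxn1, the gene of the nude mouse (1.57 and 0.95). Msx2 (1.23 and 1.17), Dlx2 (1.18 and 1.26), Hoxc13, which drives hair keratin genes (0.91 and 1.29), and Runx1 (1.44 and 0.92) also rose. The other 7 stood between 0.49 for Prdm1 and 0.67 for Foxq1, all above 0 on both arrays.

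Among genes of follicle adhesion and hair shaft function, 5 of 18 rose and 1 fell. Dsg4 rose most, and of the other desmosomal cadherins Dsc2 (1.22 ± 0.16) and Dsg3 (0.81 and 0.66) rose with it. Cdh3, the P-cadherin of the matrix (0.94 ± 0.18), and Liph, the lipase that makes the hair growth lipid LPA (0.74 ± 0.08), rose. The desmosomal genes that the whole epidermis uses were not called, with Dsp at 0.18 ± 0.07, Jup at 0.23 ± 0.23 and Dsc3 at 0.01 ± 0.23. Eda2r, a receptor of the ectodysplasin family, fell (-1.12 ± 0.16).

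**Figure D2:**
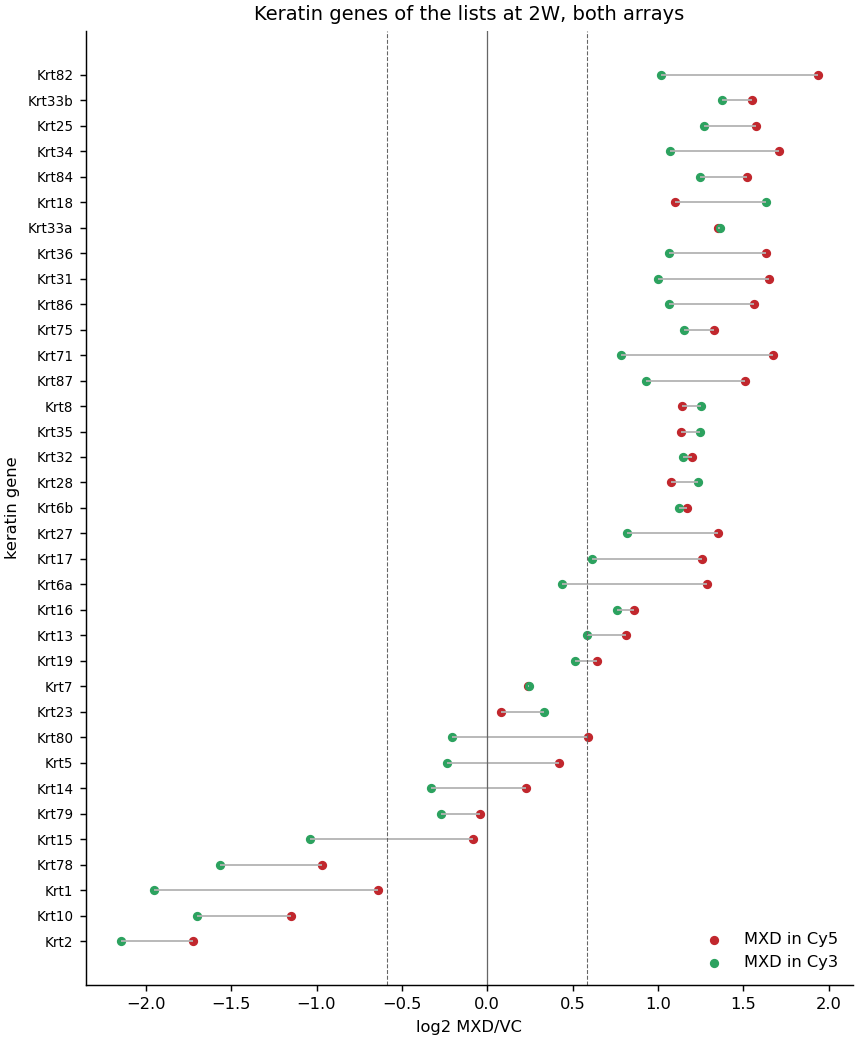
Log2 MXD over VC at 2W (x axis) of each keratin gene of the lists (y axis, ordered by the mean), with 1 point per array joined by a line and the 1.5-fold limits dashed. Hair keratins and those of the inner sheath lie past the upper limit on both arrays, the basal keratins Krt5 and Krt14 straddle 0, and Krt2, Krt10, Krt1 and Krt78 lie at the left.

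The hedgehog pathway, which drives matrix growth at the onset of anagen, had members on both sides. The ligand Shh rose (1.19 and 1.21), and so did its direct targets and effectors Gli1 (1.52 and 0.73), Ptch1 (0.84 and 0.76), Gli2 and Gli3. After normexp and loess, another background and dye correction, the dim Gli1 stood at 0.39, Dhh at -0.57 and Ptch1 at 0.55, inside the 1.5-fold limit. The receptor Smo was at 0.34 ± 0.09. The ligand of nerve sheath cells, Dhh, fell (-1.29 and -0.80), and so did the co-receptor Cdon (-0.81 and -1.27). In all, 6 of 14 rose and 2 fell, with a median of 0.59.

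Of 46 Wnt ligands, receptors and targets, 10 rose and 7 fell, with a median of 0.39. Among ligands, Wnt5a (1.19 and 1.12) and Wnt11 (0.91 and 0.95) rose, as did Wnt10b, an anagen ligand of the follicle, at 1.25 and 0.77, though it was not well above background on every array. Wnt2 fell (-1.30 and -1.28). Among receptors, Fzd5 rose most (1.45 and 1.86) and Fzd9 fell (-1.13 and -1.34). The secreted inhibitors went both ways: Wif1 (1.00 and 1.11) and Sfrp1 (1.32 and 0.62) rose, whereas Sfrp4 (-1.33 and -1.82), Sfrp2 (-1.10 and -1.35), Frzb and Dkk2 fell. Nkd1 and Nkd2, feedback inhibitors, rose. Axin2, the widely used target gene of the pathway, was at 0.09 and -0.14.

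Bone morphogenetic proteins (BMPs) hold follicles at rest and later drive differentiation of the shaft. Of 23 BMP signals and antagonists, 6 rose and 2 fell. The ligands Bmp8a (1.78 and 1.43), Bmp2 (0.85 and 1.04) and Bmp7 (0.62 and 0.67) rose. The intracellular and membrane brakes of the pathway, Smad7 (1.28 and 1.03), Smad6 (0.83 and 1.04) and Bambi (1.04 and 1.31), rose too. The secreted antagonist Chrdl1 (-1.13 and -0.73) fell, while Nog, the noggin of the papilla, stood at 0.94 and 0.11.

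Of 34 growth factors, receptors and binding proteins of the hair cycle, 5 rose and 7 fell. Ligands of the EGF receptor diverged: Areg (1.24 and 1.84) and Tgfa (0.97 and 0.84) rose, and Btc (-1.86 and -1.31), Egf (-1.73 and -1.15) and Ereg (-0.59 and -0.78) fell. Fgf5, which ends anagen, rose (1.04 and 1.28), together with Fgf22 (1.12 and 0.80) and Fgf21. Fgf18, which keeps bulge cells at rest, fell (-1.42 and -0.84). Igfbp3 fell (-1.26 and -1.42), and Igf1, Vegfa and Fgf7 were not called, at -0.51, -0.49 and -0.77.

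Markers of the bulge, the stem cell niche, also split. Of 20 that entered, 5 rose and 3 fell. Sox9 (1.03 and 1.00), Tbx1, Foxc1, Lhx2 (0.63 and 1.03) and Cdh3 rose. Cd34 (-1.26 and -1.14), Fgf18 and Nfatc1, which holds bulge cells quiescent (-0.88 and -0.72), fell. Krt15 was not called at -0.08 and -1.04, and Lgr5 was at 0.55 ± 0.01. The dermal papilla list gave 2 rises and 2 falls among 21 genes, near the 18.8% of all genes called either way. Corin, a protease of the papilla, stood at 0.41 and 1.85 and was therefore not called.

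Pigment genes rose. Of 15 genes of melanin synthesis and transport, 11 rose and 0 fell, with a median of 1.14 (1.11 and 1.14). The enzymes Tyrp1 (1.46 and 1.30) and Dct (0.99 and 1.55) rose. Tyr, tyrosinase, was not well above background in VC, so its ratio is only a bound of at least 1.29-fold higher in MXD. The melanosome transporters Oca2 (1.31 and 1.49), Slc24a5 (1.22 and 1.52) and Slc45a2 (1.35 and 1.14) and the fibril protein Pmel (1.11 and 0.97) rose. Of the lineage regulators Mitf (0.75 and 1.08), Kit (1.55 and 0.81) and Pax3 rose, and Sox10 was not called at 0.85 and -0.06. In all, 5 of 8 lineage genes rose.

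Genes of cell division were higher in MXD. Of 50 mitosis genes 33 rose and 0 fell, with a median of 0.85, and of 46 replication genes 10 rose and 0 fell, with a median of 0.46. After Top2a the highest mitosis genes were the spindle motor Kif11 (1.23 and 0.99) and the checkpoint target Cdc20 (1.32 and 0.74). The kinases Aurkb (0.95 and 0.97), Aurka (0.89 and 0.83), Plk1 and Cdk1 (0.66 and 0.65) rose, as did Mki67 (0.82 and 1.00). On the replication side Uhrf1 (1.25 and 0.95), E2f2 (1.24 and 0.93) and Mcm10 rose, whereas Pcna (0.34 ± 0.10) and Mcm3 (0.37 ± 0.16) were not called.

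Skeletal muscle genes fell as a block. All 14 genes of the fast sarcomere fell, between -1.22 and -1.59, with a median of -1.45 (-1.34 and -1.54). They were the heavy chains Myh8 (-1.65 and -1.53), Myh1 (-1.40 and -1.70), Myh4 (-1.21 and -1.51) and Myh2, the light chains Mylpf and Myl1, the troponins Tnnc2 (-1.52 and -1.54), Tnni2 and Tnnt3, and partners such as Actn3. Of the giant and scaffold proteins 22 of 25 fell, with a median of -1.46. Smpx (-2.09 and -1.44), Myot (-1.74 and -1.61) and Xirp2 (-1.75 and -1.57) fell besides Ttn, and Neb, the nebulin ruler of the thin filament, stood at -1.09 and -1.10. Summed over the 14 fast sarcomere probes, the signal was 573300 in MXD and 1404000 in VC on the array with MXD in Cy5, and 349600 and 1019000 on the other. Muscle RNA was thus still bright in the MXD pool.

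The machinery that couples excitation to contraction fell with the filaments: 20 of 21 genes, with a median of -1.30. They included the calcium channel Cacna1s (-1.62 and -1.51), the release channel Ryr1 (-0.92 and -1.62), the calcium buffer Pvalb (-1.64 and -1.50), the junctophilin Jph1 (-1.56 and -1.65) and the acetylcholine receptor subunits Chrna1 and Chrnb1. Scn4a, the sodium channel, was not called at -0.26 and -0.91. Of muscle energy genes 21 of 27 fell, among them Ckm (-0.95 and -1.97), Pygm, Mb (-1.28 and -1.61), Eno3 and Adssl1 (-2.03 and -1.47).

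Muscle and general isoforms of the same enzymes had different values. The muscle forms of cytochrome c oxidase fell: Cox6a2 (-1.54 and -1.32), Cox7a1 (-1.63 and -1.29) and Cox8b (-1.49 and -1.48). Their general counterparts were not called, with Cox6a1 at 0.36 and 0.41, Cox7a2 at -0.27 and -0.13 and Cox8a at 0.49 and 0.30. Over all 78 oxidative phosphorylation subunits 7 fell and 0 rose, beside 12.3% and 6.55% of all genes, with a median of -0.35. Atp2a1, the calcium pump of fast fibres, fell (-0.78 and -1.90) and Atp2a2 stood at 0.95 and 0.19.

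Slow fibre genes did not move as one. Myoz2 (-1.57 and -1.44), Mybpc1 (-1.30 and -1.67) and Myl3 (-1.41 and -1.55) fell, Tnnt1 and Casq2 were not called (means of -0.31 and -0.45), and Tnni1, slow troponin I, rose (1.26 and 1.01). Regulators of muscle growth and repair mostly fell, 10 of 19, with 3 rising. Mstn, the inhibitor of muscle growth, was 3.69-fold lower (-2.12 and -1.65), and the regulatory factors Myf6 (-1.33 and -1.36), Myog (-0.87 and -1.84) and Myod1 (-0.59 and -1.66), the atrophy ligase Trim63 (-1.45 and -1.58) and Mef2c (-1.18 and -1.10) fell. The 3 that rose, Foxo3, Pax3 and Runx1, are also used outside muscle, and which cells gave their values was not tested.

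Of smooth muscle genes 7 of 17 fell, with a median of -0.56. Synpo2 (-1.58 and -1.29), Lmod1 (-0.96 and -1.40), Myh11 (-0.81 and -0.67) and Cnn1 (-0.66 and -0.76) fell, although 1 of 4 probes of Synpo2 was not called (-0.34). The 2 usual markers Acta2 and Tagln were not called, at 0.18 ± 0.30 and 0.35 ± 0.09. Des, which fell, also belongs to skeletal muscle, whose part in its value was not tested.

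**Figure D3:**
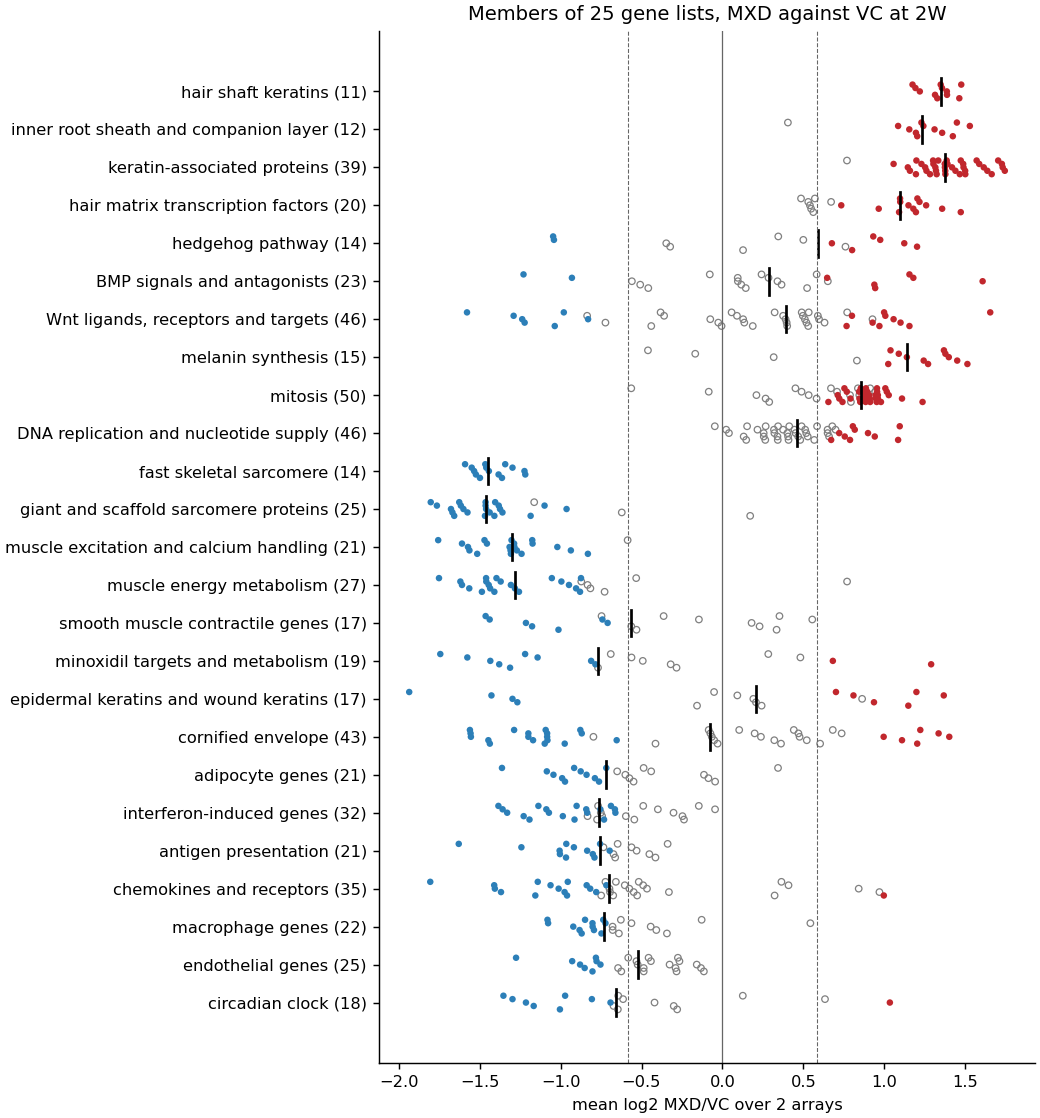
Mean log2 MXD over VC at 2W (x axis) of every member of selected gene lists (y axis, with the number of genes that entered). Red points rose and blue points fell past 1.5-fold on both arrays, open points were not called, black bars are medians and dashed lines the 1.5-fold limits. Hair and melanin lists lie at the right, skeletal muscle lists at the left, and Wnt, BMP and cornified envelope lists spread to both sides.

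Genes listed as minoxidil targets and metabolism, which include prostaglandin and adenosine receptor genes, moved as follows. Of 19 that entered, 2 rose and 9 fell, with a median of -0.77. Kcnj8, the pore of the vascular ATP-sensitive potassium channel, fell (-1.66 and -1.49), and Abcc9, its sulfonylurea receptor and the neighbouring gene on chromosome 6, fell (-1.17 and -1.27). The 2 probes of Kcnj8 disagreed, since the other stood at -1.66 and 0.96. Kcnj11, the pore used in muscle and the pancreas, fell (-1.14 and -1.48), and its usual partner Abcc8 was at -0.32 ± 0.34. Sult1a1, the sulfotransferase that activates the drug, was 2.21-fold lower (-1.11 and -1.18). Beside these values, the medians of the smooth muscle, endothelial and fast sarcomere lists were -0.56, -0.52 and -1.45, and their part in the values of the channel genes was not tested.

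Prostaglandin genes moved in both directions. Ptgs1, cyclooxygenase 1, was 3.35-fold lower (-1.74 ± 0.20), and Ptgs2 was not called at -0.84 and -0.54. Ptgds, prostaglandin D synthase, rose (1.63 and 0.95), and Ptges, prostaglandin E synthase, fell (-0.91 and -0.71). Among receptors Ptger4 rose (0.70 and 0.66), and Ptger3 (-1.83 and -1.03) and Ptgfr (-1.60 and -1.16) fell. Of the adenosine receptors Adora2b fell (-0.61 and -0.96), and Adora1 and Adora2a had means of -0.56 and 0.28.

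**Figure D4:**
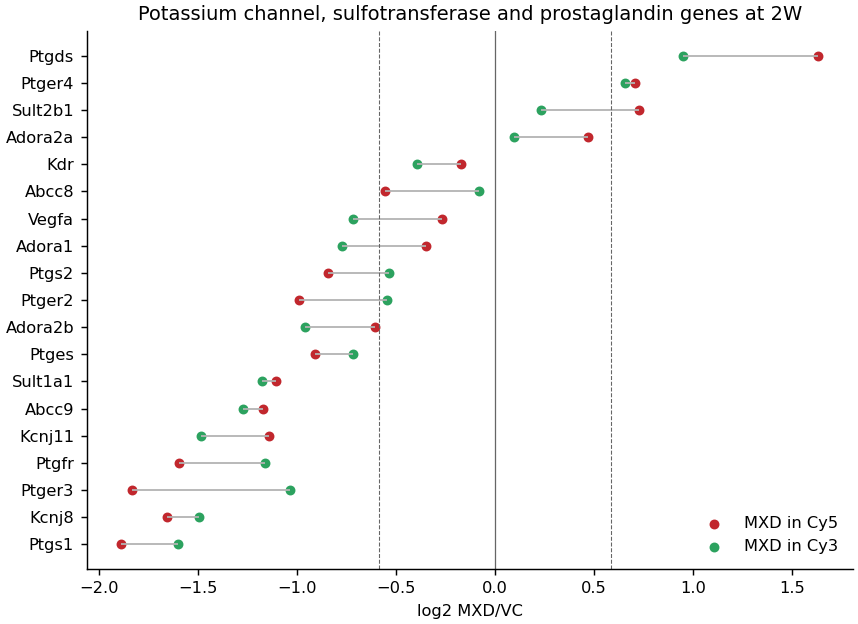
Log2 MXD over VC at 2W (x axis) of genes listed as minoxidil targets and metabolism, prostaglandin genes among them (y axis). There is 1 point per array, joined by a line, and the 1.5-fold limits are dashed. Ptgs1, Kcnj8, Ptger3, Ptgfr, Kcnj11, Abcc9 and Sult1a1 lie below -1 on both arrays, and Ptgds and Ptger4 lie above the upper limit.

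Epidermal keratins moved in both directions, with 6 of 17 rising and 4 falling. Krt2, a keratin of the upper spinous and granular layers, was among the 10 lowest of all called genes (-1.72 and -2.15), 3.82-fold lower in MXD. Krt10 (-1.15 and -1.70), Krt1 (-0.64 and -1.95) and Krt78 also fell. The basal keratins Krt5 and Krt14 were not called, at 0.09 ± 0.46 and -0.05 ± 0.39. Keratins of the outer root sheath and of wounded or hyperproliferative epidermis rose, namely Krt16 (0.86 and 0.76), Krt17 (1.26 and 0.61) and Krt6b (1.17 and 1.12), and so did Krt8 and Krt18 (1.37 ± 0.38), the pair of simple epithelia. In N-CE at 2W, against the same VC pool, Krt2 stood at -1.34.

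Genes of the cornified envelope moved in both directions. Of 43 that entered, 6 rose and 18 fell. The 30 on chromosome 3 held 6 rises and 15 falls, and the 13 elsewhere 0 and 3. All 13 members of the Lce1 family, late envelope proteins, fell, between -0.65 and -1.44. Flg2 (-1.73 and -1.38), Hrnr (-1.45 and -1.44), Lor, the loricrin of the mature envelope (-0.91 and -1.43), and Krtdap, on chromosome 7, fell too. Rising were Lce3c (1.24 and 1.21), the small proline-rich proteins Sprr2f (1.56 and 1.24), Sprr2h, Sprr1b (1.55 and 0.85) and Sprr1a, and involucrin Ivl (0.99 and 1.00). Sprr2d ran against its relatives at -1.65 and -1.46. Flg, the filaggrin gene, was at -0.17 and 0.37. On the whole chromosome 18.5% of genes fell, and 17.1% without 48 genes of the epidermal differentiation complex, against 12.3% of all genes.

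Fat genes fell in part. Of 21 adipocyte genes 11 fell and 0 rose, with a median of -0.72. Slc2a4, the insulin-dependent glucose transporter of fat and muscle, was lowest (-1.32 and -1.41), followed by Plin1, the lipid droplet coat (-1.25 and -0.92), and Retn. Adipoq fell less (-0.77 and -0.80), and Fabp4 and Lipe had means of -0.09 and -0.05. The probe signals of the list summed to 467800 in MXD and 717200 in VC on the array with MXD in Cy5, and to 368200 and 556400 on the other. Of 21 sebaceous gland genes 6 fell and 1 rose, with Awat2, a wax synthase, at -0.83 and -1.42 (-0.44 after normexp and loess), Acsbg1 at -0.95 on either scale, and Fads2 at 1.00 ± 0.14. Cholesterol synthesis gave 2 falls and 1 rise among 24 genes, beside 12.3% and 6.55% of all genes.

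Immune genes were mostly lower. Interferon-induced genes fell in 18 of 32 cases and rose in 0, with a median of -0.76 (-0.75 and -0.78). They were led by the interferon gamma type GTPases Iigp1 (-1.59 and -1.17), Gbp3 (-1.41 and -1.31) and Gbp4, and by Oas1b (-1.27 and -1.19), whereas Isg15 was not called, with a mean of -0.05. Of 21 antigen presentation genes 12 fell, among them the dendritic cell molecules Cd86 (-1.30 and -1.19) and Cd207, the langerin of Langerhans cells (-0.99 and -1.02), with H2-Aa (-0.70 and -1.23), B2m and Ciita.

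Of 20 genes of T cells and NK cells 11 fell and 1 rose, with a median of -0.76. After normexp and loess the median was -0.31. On that scale Cd4 (0.55) and some of the falls that are not named lay within 1.5-fold. Klrd1 (-1.64 and -1.38), Cd3g (-1.57 and -1.16) and Cd3d (-1.10 and -1.27) fell, whereas Cd3e and Lck had means of -0.10 and 0.06, and Cd4 rose (1.36 and 0.76). Macrophage genes fell in 12 of 22 cases, with Cd163 (-1.09 and -1.07), Mrc1 (-0.89 and -0.85) and Adgre1 (-0.76 and -0.71) among them. Their probe signals summed to 108000 in MXD and 182400 in VC on one array and to 75840 and 130200 on the other. Of 13 mast cell genes 4 fell and 1 rose. The mast cell protease genes Cma1 and Cpa3 fell, and the gene that rose was Kit. Melanocytes also use Kit, and their part in its value was not tested.

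Of 35 chemokines and their receptors 15 fell and 1 rose. Ccl17 (-1.55 and -2.06), Ccl12 (-1.40 and -1.42), Xcl1 and Ccl24 fell. Their order depended on the background, since after normexp and loess Ccl17 stood at -0.94, Xcl1 at -0.64 and Ccl12 at -1.16. Cxcl14, a chemokine made by keratinocytes, rose (1.16 and 0.83). Interleukins and receptors fell in 20 of 39 cases. Within the interleukin 1 family Il1f9, an interleukin 36 (-1.58 and -1.68), Il33 (-1.44 and -1.54), Il1f8, Il18, Il1f6 and Il1a fell, while Il1b and its antagonist Il1rn had means of -0.05 and -0.06. Of 15 genes of neutrophils and the acute phase 3 rose and 2 fell, with Saa3 at 1.02 and 1.47 and S100a8 at 0.89 and 1.03, but S100a9 at -0.52 and -0.06.

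Stroma and vessels gave smaller values. Of 36 collagens 8 fell and 2 rose: Col3a1 (-0.98 and -0.73), Col5a1 and Col5a2 of the dermis and the anchoring collagens Col7a1 (-1.30 and -0.81) and Col17a1 (-1.07 and -0.76) fell, and Col18a1 and Col11a1 rose. Col22a1, a collagen of the muscle-tendon junction, was at -1.19 and -1.50. Among proteases Adamts18 rose (1.27 and 1.86) and Mmp3 fell (-1.47 and -1.14). Endothelial genes fell in 8 of 25 cases, Cldn5 (-1.08 and -0.78) and Emcn among them, and Pecam1 and Cdh5 were not called, with means of -0.33 and -0.46. Of 15 genes of Schwann cells and nerves 4 fell and 0 rose. Of 8 erythrocyte genes 3 fell and 1, Slc4a1, rose (1.29 and 1.35), with Hba-a1 at -0.60 and -0.61.

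Clock genes were mostly lower in MXD. Of 18 circadian genes 8 fell and 1 rose, with a median of -0.66. The hour of sampling of each pool was not given in the sources used here, and its part in these values was not tested. The output factors Dbp (-1.40 and -1.31), Hlf (-1.11 and -1.32) and Tef fell with the repressors Nr1d1 (-0.65 and -1.68) and Nr1d2 (-1.12 and -0.89), and Nfil3, which opposes Dbp, rose (1.15 and 0.92). Arntl was at 0.13 ± 0.09 and Per1 at -0.28 ± 0.03. Of 20 hypoxia genes 4 fell and 1 rose, with Bnip3 (-1.36 and -1.52) lowest. Of 24 immediate early genes 3 rose and 1 fell, near the 18.8% of all genes called either way.

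Among genes named for size alone, Cer1, a secreted antagonist of BMP and nodal signals, stood at 1.77 and 2.02 and Cntfr, the receptor of ciliary neurotrophic factor, at 2.09 and 1.60. The lowest was Skint11, of a family expressed in skin and thymus (-2.57 and -1.61, 4.25-fold lower), followed by Mucl1, the muscle gene Asb15, the serine protease inhibitor Serpinb10 (-2.07 and -1.81) and Krt2. Dim genes among them depended on the background: Cer1, whose signals were 208 in MXD and 61.3 in VC on one array, gave 0.80 after normexp and loess in place of 1.89, and Asb15 gave -0.74 in place of -1.94. Of 505 called members of the lists, 73 lay within 1.5-fold after normexp and loess, all with the same sign. Besides Gli1, Dhh, Ptch1 and Awat2, those named so far were Cd86 (-0.45), Cd4, Cdk1, Chrnb1, Col11a1, Col22a1, Dsg3, Ereg, Fgf21, Frzb, Gli3, Il1a, Il1f6, Myod1, Myog, Pax3, Ptger4, Saa3, Tgfa, Tnni1, Tyr and Wnt10b. Ankrd1, Msr1, Ppbp and Scn7a, named in a later section, were also among the 73. Serpinb3b and Eya4 fell and Pde4dip fell by 4 of its 6 probes.

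In the other comparisons set beside this one, fewer genes were called and the medians of the hair, muscle and mitosis lists lay nearer 0. The median of hair shaft keratins was 0.61 in MXD at 1W and 0.27 at 3W. For keratin-associated proteins these medians were 0.79 and 0.19. Fast sarcomere genes stood at -0.66 and -0.45, and mitosis genes at 0.38 and 0.36. Interferon-induced genes stood at -0.06 and -0.02, near 0 in both weeks, and minoxidil targets at -0.07 and -0.11. Other lists did not all lie nearer 0 at 1W than at 2W. Neutrophil and acute phase genes had a median of 1.13 at 1W, where 9 of 16 rose, against -0.08 at 2W. Cornified envelope genes had a median of 0.11 at 1W with 11 rises, against -0.07 at 2W with 18 falls. On the 2 arrays their medians were 0.16 and 0.15 at 1W, and -0.35 and -0.28 at 2W. Cholesterol genes stood at -0.20 at 1W against -0.09 at 2W, and sebaceous genes at -0.52 against -0.51. In N-CE at 2W, which shares the VC pool and the slide with MXD at 2W, the same medians were 0.35 for hair shaft keratins, -0.40 for fast sarcomere genes, 0.24 for mitosis genes and -0.04 for interferon-induced genes. In MXD 1.32% of genes rose and 1.41% fell at 1W (2.73% either way), and 0.343% and 0.329% did so at 3W (0.672% either way). In N-CE at 2W 0.15% rose and 0.122% fell (0.272% either way). The weeks lie on different slides and have different VC pools, so week, slide and pool cannot be told apart, and with 1 pool a group no difference between weeks was tested.

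**Figure D5:**
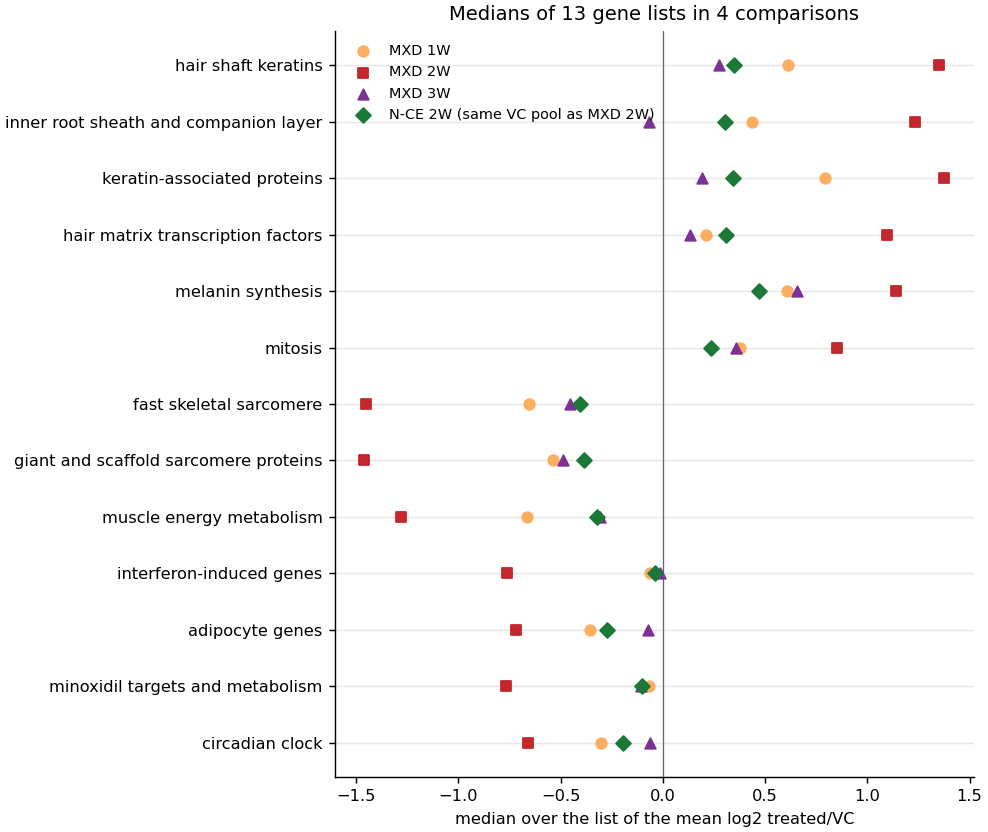
Median over each gene list of the mean log2 of treated over VC (x axis) for selected lists (y axis) in MXD at 1W, 2W and 3W and in N-CE at 2W. The MXD 2W medians lie farthest from 0 in every list drawn, at 1.35 for hair shaft keratins and -1.45 for the fast sarcomere.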

How the data were processed

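RNA of whole back skin was hybridized to Agilent 2-colour arrays, of which 2 of 12 form this comparison. The authors deposited Feature Extraction output: per spot, the intensity of each channel after background subtraction and dye normalization, the log10 ratio of Cy5 over Cy3, a p-value of the software's error model and flags (other). The file headers name version 12.0.3.1 and the submitters' processing notes 11.0.1.1. The deposited series matrix holds log10 ratios, within 1.661e-08 on the log2 scale of the processed intensities on each array (43379 transcript spots). Neither the p-value nor the log10 ratio of the software entered the main values. Probe positions are on mm9.

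Control spots and marked outliers were left out, log2 ratios were turned to MXD over VC, and spots of a probe were averaged. Through accessions, symbols or synonyms of the RefSeq table, 33699 of 41174 probes were named. A gene took its brightest probe over 12 arrays and entered if well above background on both arrays in at least 1 group. Among 5725 genes with more probes, 633 had probes of differing calls and 3 of opposite calls. Saturated spots numbered 0. Bounds compare channels after normexp (offset 50), loess and Aquantile normalization, and are open to dye bias.

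With 1 pool per group no test was possible, and the number of arrays limits the precision. The members of the comparison and the gene lists were chosen with earlier results of these data known. Genes were named by a rule (4 markers, the 10 highest and 10 lowest called genes, the 3 largest changes per list, and minoxidil targets), and other members of a list were named after their values had been seen. The call rule was tried on simulated dye swaps with the spread of the 2 arrays. They held no variation between mice or pools, so they say nothing on whether a call reflects the treatment. Python 3.11.15, pandas 2.3.3, numpy 2.4.6, R 4.3.3 and limma 3.58.1 were used. Alternatives covered background, centring, the software's ratio, the matrix, each array alone, outlier spots, filters, probe averaging and the call rule. Some members of the lists are counted but not reported by name here.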

Additional observations from a re-analysis of the deposited data

Results flagged for a closer look

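Some genes were called in opposite directions in MXD at 2W and in MXD at another week. None of these differences was tested, since each week has 1 pool a side, and week, slide and VC pool cannot be told apart.

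Of 195 genes that rose at 1W, 28 fell at 2W (14.4%), near the 12.3% of all genes. Of these 28 genes, 10 are on the lists. Of the same 195 genes, 81 rose at 2W as well, beside 6.55% of all genes. Of 209 genes that fell at 1W, 131 fell at 2W as well, beside 12.3% of all genes, and 1 rose at 2W, beside 6.55%. The mechanical stress gene Ankrd1 stood at -1.51 at 2W and 3.03 at 1W, and the envelope gene Sprr2d at -1.56 and 3.11. Among muscle genes Sln, the sarcolipin of the calcium pump, stood at -1.76 and 1.22, Myog at -1.36 and 1.06, Chrna1 at -1.29 and 0.64, and Myh2 at -1.22 and 0.79. Among immune genes Il1f6 stood at -1.17 and 0.90, Ppbp at -0.98 and 1.27, and Msr1 at -0.85 and 0.69. Scn7a, a sodium channel of Schwann cells, stood at -0.84 and 0.73. At 2W Ankrd1 and Scn7a were not well above background on every array. After normexp and loess several 2W values lay within 1.5-fold. They were those of Ankrd1 (-0.38), Il1f6 (-0.51), Msr1 (-0.31), Myog (-0.57), Ppbp (-0.46) and Scn7a (-0.17).

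Of 47 genes that fell at 3W, 5 rose at 2W, beside 6.55% of all genes. Of 49 that rose at 3W, 3 fell at 2W, beside 12.3%. Among the genes named or on the lists, Fgf21 stood at 1.32 at 2W and -1.01 at 3W, Krtap4-13 at 1.06 and -0.84, and Mucl1 at -1.96 and 0.78.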

How the results depend on the processing

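No called value turned its direction among the medians of the main gene groups and the 150 genes of the naming rule. Part of this was fixed in advance. A called gene lies past the fold on both arrays, so that either array alone could not turn it, and the series matrix repeats the main values. The 150 genes were set beside 7 settings, without the filters and the probe averaging. Other genes named as not called, such as Axin2, Flg and Sox10, differ in sign between the arrays. Over 10 settings 43 of 45 list medians kept their sign, and those of erythrocyte genes (-0.40 to 0.01) and of neutrophil and acute phase genes (-0.21 to 0.06) did not. No paired analysis was possible because each group was 1 pool. With normexp and loess in place of the software's signals, 547 genes rose and 1204 fell, of which 545 and 1190 were among the genes called with the software's signals. The medians then were 0.74 for matrix transcription factors, 0.35 for hedgehog, 1.02 for melanin, 0.67 for mitosis, -0.49 for minoxidil targets, -0.70 for adipocyte and -0.58 for interferon-induced genes. With a 2-fold rule 266 rose and 618 fell. With either array alone (leave-one-out) 1605 to 1990 rose and 2655 to 2673 fell, and the medians ranged from 1.18 to 1.43 for the inner root sheath, 0.85 to 1.06 for matrix transcription factors (0.845 at the lowest), 0.50 to 0.57 for hedgehog, 1.11 to 1.14 for melanin, 0.77 to 0.84 for mitosis and -0.79 to -0.77 for adipocyte genes. With centred arrays the medians were 1.103 for melanin, -0.75 for adipocyte and -0.80 for interferon-induced genes, and 825 genes rose and 1837 fell. With probes above background in both groups melanin was 1.11. With no filter the medians were 0.49 for hedgehog, 1.19 for melanin, -0.53 for minoxidil targets and -0.68 for adipocyte genes, and with the mean of all probes 0.51 for hedgehog and -0.70 for adipocyte genes. The causes of these shifts were not tested. Signal over background limits dim genes most.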

Other observations

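Families picked by symbol after their values had been seen are given here for MXD at 2W, without a test. Of 18 members of the Serpinb family, intracellular serine protease inhibitors on chromosomes 1 and 13, 12 fell and 0 rose, with a median of -1.16. Serpinb5, Serpinb13 and Serpinb11 were not called, at 0.08, 0.44 and 0.57. All 5 Skint genes that entered, of 8 on the array, fell, between -0.84 and -2.09. Of 13 guanylate-binding proteins and immunity-related GTPases 11 fell, with a median of -1.14.

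Of 26 clustered histone genes 15 rose and 0 fell, with a median of 0.91, and H2ac4 was highest at 1.37. Hox genes were called in each of the clusters, in Hoxa and Hoxd near the 18.8% of all genes called either way. In Hoxb 3 of 8 rose and 0 fell, with Hoxb8 at 1.57, in Hoxa 2 of 10 and in Hoxd 1 of 5 fell and 0 rose, and in Hoxc Hoxc13 rose while Hoxc9 and Hoxc10 fell (-0.98 and -0.92). Of the 1065 genes of the 45 lists that entered, 203 rose and 302 fell, beside 6.55% and 12.3% of all genes. The lists were chosen with earlier results of these data known.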
